A study of Mus musculus with 18 samples.

Results

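The pyruvate dehydrogenase complex and the enzymes that switch it off and on were followed in AML12 cells, a non-transformed hepatocyte line established from a mouse carrying a transgene for human transforming growth factor alpha. The 8 genes were taken as a list of symbols out of 35551 genes in each table, chosen with earlier results of these data known. They were the kinases Pdk1, Pdk2, Pdk3 and Pdk4, the phosphatases Pdp1 and Pdp2, and the subunits Pdha1 and Pdhb. These are subunits of the E1 enzyme that the kinases and phosphatases act on. Synchronized cells received either pemafibrate, a drug that activates the fatty acid receptor PPARα selectively, or the solvent DMSO, and no dose is given in the labels. There were 3 windows of exposure. T0 to T24 was a 24 h exposure, T14 to T20 was a 6 h exposure placed to stand for day, and T24 to T30 was a 6 h exposure placed to stand for night. Each window had 3 DMSO and 3 pemafibrate libraries numbered 1 to 3, which makes 6 groups, 9 numbered pairs and 18 libraries of the same line. The labels do not state whether replicates are separate cultures, so p-values reflect no more than library to library spread, possibly technical.

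The complex sits in the mitochondrial matrix and turns pyruvate into acetyl-CoA, the step that commits carbon from glucose to the citric acid cycle or to fatty acid synthesis. Pyruvate dehydrogenase kinases phosphorylate serines of the E1 alpha subunit and thereby inactivate the complex, and pyruvate dehydrogenase phosphatases remove the phosphate and restore it. In liver the kinase PDK4 is known to increase in fasting and PDK4 is a textbook target of PPARα, PDK2 is the widely expressed isoform, and PDK1 is known as a target of hypoxia-inducible factor.

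Values are normalized signal, the number of sequenced fragments assigned to a gene after the authors' scaling within a window. The 3 tables were scaled separately, so levels are compared between treatments within a window and never tested between windows. Library totals ran from 31461977 to 33884634, the 10 most abundant genes held 4.72% to 5.64% of a library, and no pair of libraries was identical. Of 16 hepatocyte markers 11 had a mean of at least 10, among them Alb, Ttr and Hnf4a, while Apoa1, Apoa2, Apoc3, Cps1 and Asgr1 were below it. The summed hepatocyte markers ran from 179413 to 223616 in DMSO and from 183951 to 223755 under pemafibrate. Of 5 cholangiocyte markers 4 were above 10 (Krt7, Krt19, Sox9 and Spp1, with Epcam below), with sums of 50225 to 76849 in DMSO and 49624 to 73825 under pemafibrate. Of 5 macrophage or leukocyte markers 3 had a mean above 10: Csf1r ran from 137 to 269 over the libraries, Cd68 from 29.3 to 60.7 and Ptprc from 27.6 to 58.5, while Adgre1 and Clec4f were at 0 in all libraries. Their sum ran from 246 to 361 in DMSO and from 206 to 348 under pemafibrate. The summed fibroblast or stellate markers (3 of 7 above 10) ran from 93.3 to 206 and from 123 to 175, and the endothelial markers (1 of 5) from 11.7 to 32.4 and from 9.87 to 28.2, in the same order. The part of these cell types in the results was not tested.

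Of the 8 genes, 7 have a promoter entry in RefSeq on GRCm38.p6, and Pdp1 is only named. Pdk1 and Pdk2 have 2 entries each, and the motifs reported for them below lie in entry 1. The bases just after the start were looked up in the GENCODE transcripts of the gene. They were found for all entries but entry 1 of Pdk2 and the entry of Pdha1. The 250 bases before the annotated start are printed for Pdk4, the kinase gene whose signal differed most between treatments, and for Pdk1, the kinase gene next to it in size of difference, so that both can be read side by side. The Pdk4 window is chr6:5496279-5496528 on the minus strand and the Pdk1 window, entry 1 of 2, is chr2:71872974-71873223 on the plus strand. Capitals mark GCGTG, a core of the sequence bound by hypoxia-inducible factor.
Pdk4: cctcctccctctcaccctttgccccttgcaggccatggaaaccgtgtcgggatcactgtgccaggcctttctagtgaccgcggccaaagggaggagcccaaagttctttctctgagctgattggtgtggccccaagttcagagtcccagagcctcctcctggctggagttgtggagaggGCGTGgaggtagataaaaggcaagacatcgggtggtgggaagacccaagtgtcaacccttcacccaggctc
Pdk1: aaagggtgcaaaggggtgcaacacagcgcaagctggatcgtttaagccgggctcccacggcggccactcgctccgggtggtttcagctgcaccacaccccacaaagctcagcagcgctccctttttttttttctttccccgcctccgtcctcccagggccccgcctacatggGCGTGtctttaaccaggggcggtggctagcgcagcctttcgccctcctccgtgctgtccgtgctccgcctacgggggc
GCGTG stands 71 to 67 bases before the start of Pdk4 and 78 to 74 bases before that of Pdk1, on the strand of the gene in both. The motif is common: 28.2% of 32851 promoter windows of the same length hold it on one strand or the other, and among the 7 genes Pdk3, Pdha1 and Pdhb hold it as well. AGGTCA, the half-site of nuclear receptors such as PPARα, was searched on both strands and lies in 14.02% of all windows, and a direct repeat of it with 1 base between lies in 0.033%. Neither was found in the windows of the 7 genes, which says only that these letters are not in these bases. CACGTG, the E-box bound by the clock factors CLOCK and BMAL1, lies in 6.02% of all windows, and among the 7 genes in Pdk2 and in Pdp2. For Pdk2 it lies in entry 1, whose start was not matched to a GENCODE transcript, and not in entry 2. The letters ACGTG, the other core bound by hypoxia-inducible factor and a part of every CACGTG, lie in 16.6% of all windows, and among the 7 genes in Pdk2, Pdk3, Pdp2 and Pdhb. GC content was 58.8% for the Pdk4 window and 64.0% for the Pdk1 window, against a median of 52.4% over all windows.

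Pemafibrate was accompanied by more Pdk4 RNA in every window. In the limma fit over all windows Pdk4 was the 1 of the 8 genes that passed, where 0.189% of all genes tested did. Within single windows 0 of the 8 passed. Over all windows Pdk4 rose 2.25-fold, and the estimates for the 7 other genes ran from −2.65% to 11.1%, without passing. All 8 had a mean of at least 10 and were tested in each window. In bulk RNA, more Pdk4 RNA per cell and more cells that express Pdk4 cannot be told apart.

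In T0 to T24 the normalized signal of Pdk4 was 76.5, 71.3 and 75.6 in DMSO replicates 1 to 3 and 269, 169.6 and 174 in the pemafibrate replicates. Every treated library lay above every control, and replicate 1 stood highest under the drug. The share of all genes whose groups lie apart in this way was not counted in any window. The group means were 74.5 ± 2.78 (SD, n = 3) and 204 ± 56.1 (SD, n = 3). In T14 to T20 Pdk4 signal was 71.6, 81.0 and 96.5 in DMSO against 219.7, 162 and 151 under pemafibrate. In T24 to T30 it was 98.9, 81.3 and 91.9 in DMSO against 228, 161 and 168. The groups did not overlap in either short window, and the treated replicate 1 was again the highest of its group in both. Means were 83.0 ± 12.6 and 178 ± 36.9 in T14 to T20 and 90.7 ± 8.86 and 186 ± 36.6 in T24 to T30 (SD, n = 3 each).

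**Figure D1:**
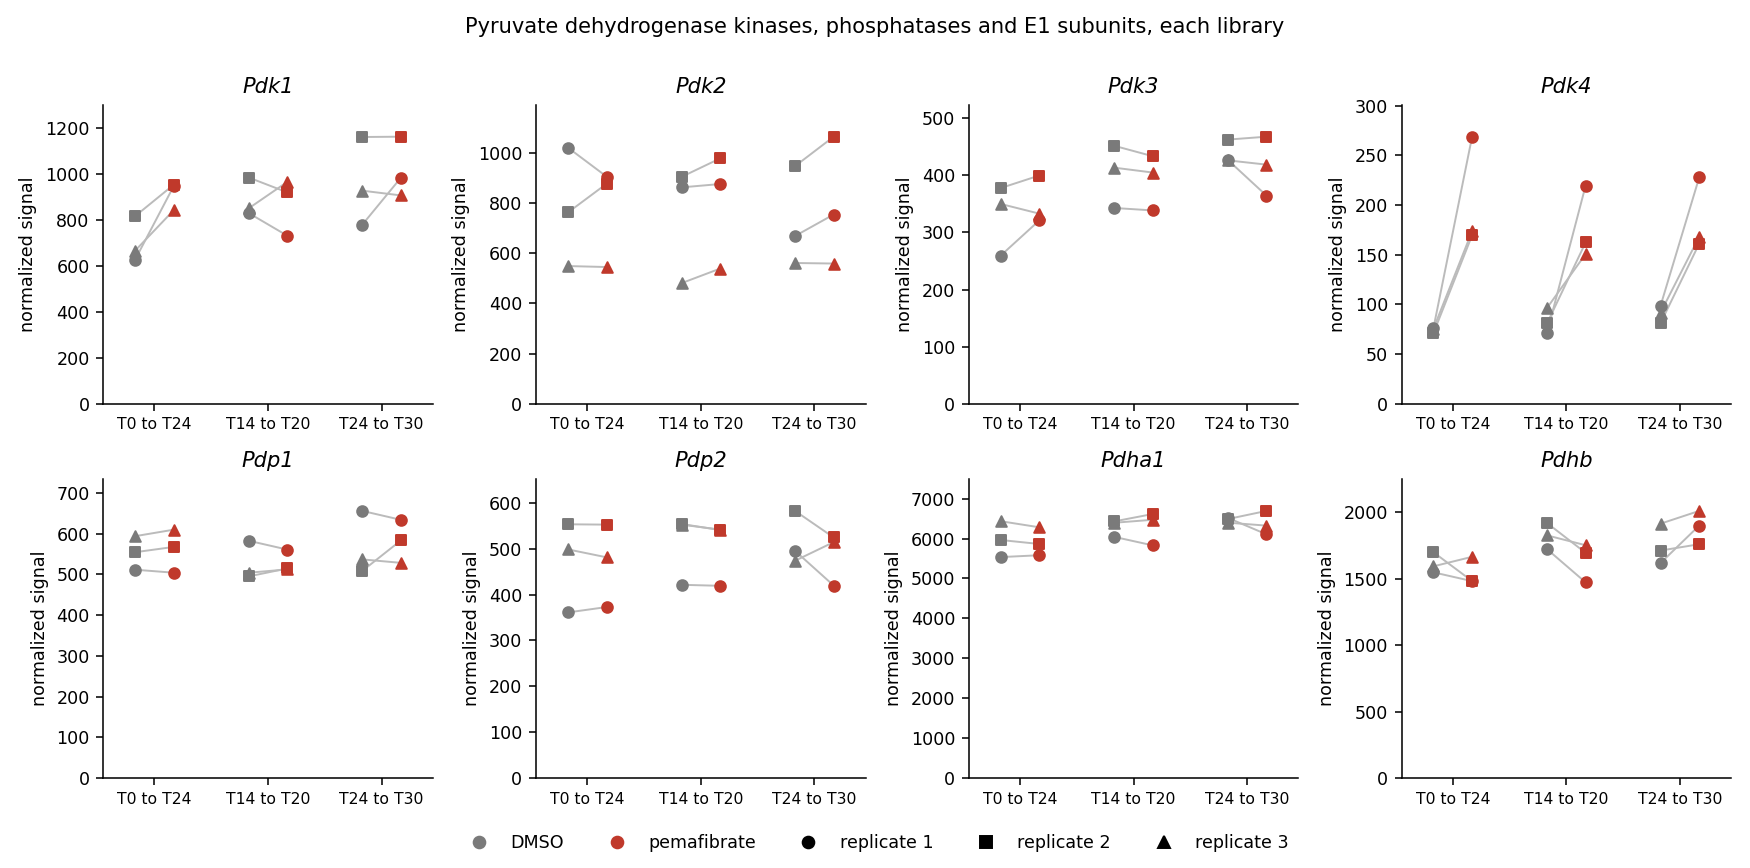
Normalized signal (vertical axis, from 0) of the 8 genes in each of 18 libraries, by window on the horizontal axis. Grey marks are DMSO, red marks pemafibrate, the shape gives the replicate number, and lines join libraries of the same number. For Pdk4 all red marks lie above all grey marks in each window, and for Pdk1 they do so in T0 to T24. The share of all genes with such a pattern was not counted.

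Differences were tested on log2(value + 1), a scale that understates the change of low genes, with limma and the replicate number as a block, adjusted by the Benjamini-Hochberg method over all genes tested. Pdk4 was 1.41 ± 0.16 (SE) log2 units higher in T0 to T24 (95% interval 1.04 to 1.78, 2.66-fold). It was 1.08 ± 0.19 higher in T14 to T20 (0.64 to 1.52, 2.11-fold) and 1.01 ± 0.13 higher in T24 to T30 (0.72 to 1.31, 2.02-fold). The limma adjusted p was 0.0584, 0.290 and 0.161 in that order, so Pdk4 did not pass 0.05 within any single window, although it ranked 9, 27 and 6 by p among all genes tested. Calls were rare in these fits: 7 of 13325 genes passed in T0 to T24 (0.0525%), 5 of 13210 in T14 to T20 (0.0379%) and 5 of 13231 in T24 to T30 (0.0378%), against 0 of the 8 genes in each. Without the block the 3 fits called 0, 0 and 0 genes, and 94, 73 and 123 genes had an unadjusted p under 0.05.

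A single effect fitted over the 9 pairs of all windows placed Pdk4 at 1.17 ± 0.11 log2 units (95% interval 0.94 to 1.40; limma adjusted p = 6.7e-05), with the pemafibrate library higher in 9 of 9 pairs. In that fit 25 of 13258 genes passed (0.189%), 24 of them up and 1 down, and Pdk4 was the 10th by p. All 9 pairs pointed in the same direction for 104 of 13258 genes (0.784%), and among the 8 genes for Pdk4. Pairs of the same number in different windows may not be independent, and with the windows averaged within each number the Pdk4 difference was the same with a limma adjusted p of 0.0248. Without the block the fit called 2 genes, Pdk4 among them at an adjusted p of 0.00016. The count of genes called was 14 without replicate 1 and 12 without replicate 2, while Pdk4 passed without any 1 of the 3 numbers, at adjusted p from 0.00085 to 0.0081.

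**Figure D2:**
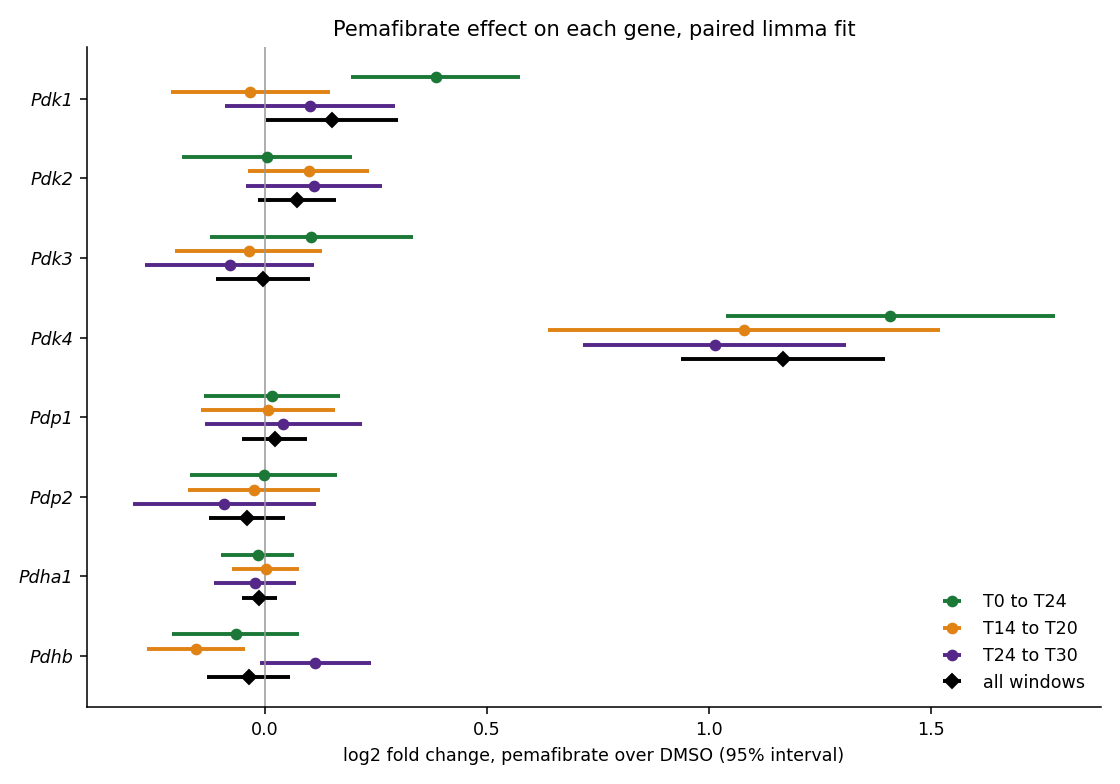
Log2 fold change of pemafibrate over DMSO (horizontal axis) for each of the 8 genes, from the paired limma fit. Points are estimates for the 3 windows and the diamond is the fit over all windows, and bars are 95% intervals. The Pdk4 intervals lie between 0.64 and 1.78, and those of Pdk1 in T0 to T24 and Pdhb in T14 to T20 are the other window intervals that do not reach 0.

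The size of the Pdk4 difference varied between replicate numbers. Within pairs the drug to DMSO ratio was 3.48, 2.36 and 2.28 for replicates 1 to 3 in T0 to T24, 3.04, 1.99 and 1.56 in T14 to T20, and 2.29, 1.97 and 1.82 in T24 to T30. Replicate 1 gave the largest ratio in each of the 3 windows. Averaged over windows the difference was 1.53, 1.07 and 0.90 log2 units for replicates 1, 2 and 3. Other PPARα targets were set beside it: of 16 that could be tested, 9 had their largest effect in replicate 1, 2 in replicate 2 and 5 in replicate 3, with median effects of 0.23, 0.16 and 0.18 log2 units. The signal of Ppara, the receptor gene, was 211 ± 50.8 in replicate 1, 160.4 ± 37.5 in replicate 2 and 136 ± 55.0 in replicate 3 (SD, n = 6 each, windows and treatments pooled as a description). That of the hepatocyte marker Hnf4a was 7246 ± 209, 7225 ± 1119 and 8834 ± 757 in the same order. Under the drug Ppara differed by −0.50 ± 0.22 log2 units in T0 to T24, 0.50 ± 0.20 in T14 to T20 and 0.33 ± 0.16 in T24 to T30 (SE). It did not pass in any window by limma. The part of either gene in the Pdk4 values was not tested.

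Pdk4 did not differ detectably in its response between windows. The difference of effects was 0.07 log2 units for T14 to T20 minus T24 to T30 (95% interval −0.49 to 0.62), the day-like against the night-like exposure. For the 24 h exposure it was 0.33 above T14 to T20 (−0.22 to 0.88) and 0.40 above T24 to T30 (−0.16 to 0.95). All 3 intervals take in 0 and reach 0.62 to 0.95 log2 units, so they do not show that the windows were alike. No gene of 13258 passed for any of the 3 differences (0% for each by limma), and 1225, 654 and 1057 genes had an unadjusted p under 0.05 (9.24%, 4.93% and 7.97%) for T14 to T20 minus T24 to T30, T0 to T24 minus T14 to T20, and T0 to T24 minus T24 to T30. The 3 differences share windows with each other.

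Pdk1, the hypoxia-responsive kinase, did not pass in any window, and its largest difference was measured in T0 to T24. Its signal in T0 to T24 was 629, 818 and 668 in DMSO and 949, 955 and 844 under pemafibrate. The groups did not overlap, a pattern whose share over all genes was not counted. The means were 705 ± 99.96 and 916 ± 62.4 (SD, n = 3 each). In T14 to T20 Pdk1 was 831, 986 and 852 against 732, 921 and 967, and in T24 to T30 it was 780.4, 1163 and 929 against 985, 1164 and 908. Groups overlapped in both short windows, with 1 of 3 and 2 of 3 pairs higher under the drug. The limma difference was 0.38 ± 0.08 log2 units in T0 to T24 (95% interval 0.19 to 0.58, 1.31-fold), with an unadjusted p of 0.00196 and an adjusted p of 0.533. It was −0.03 ± 0.08 in T14 to T20 and 0.10 ± 0.08 in T24 to T30.

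Over all windows Pdk1 was 0.15 ± 0.07 log2 units higher (95% interval 0.00286 to 0.30), with 6 of 9 pairs higher and an adjusted p of 0.767. The difference between T0 to T24 and T14 to T20 was 0.42 log2 units (0.13 to 0.71), with an unadjusted p of 0.0086 and an adjusted p of 0.985, and that between T0 to T24 and T24 to T30 was 0.28 (−0.0047 to 0.57). Neither passed. At an unadjusted p under 0.05, 2 of the 8 genes were counted in T0 to T24 (Pdk4 and Pdk1), 2 in T14 to T20 (Pdk4 and Pdhb), 1 in T24 to T30 (Pdk4) and 2 over all windows (Pdk4 and Pdk1). The same rule counted 5.17%, 8.14%, 7.51% and 6.45% of all genes tested in these 4 fits.

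Pdk2, the widely expressed kinase, followed the replicate number far more than the treatment. Its signal in T0 to T24 was 1019, 761 and 548 in DMSO and 904, 876 and 544 under pemafibrate. In T14 to T20 it was 861, 903 and 480.2 against 875, 977 and 538. In T24 to T30 it was 668, 946 and 560.4 against 753, 1063 and 558. Replicate 3 was the lowest of its group in all 6 groups. Over the 6 libraries of each number the means were 847 ± 122, 921 ± 102 and 538 ± 29.7 (SD, n = 6). The limma difference over all windows was 0.07 ± 0.04 log2 units (95% interval −0.01 to 0.16), with 6 of 9 pairs higher and an adjusted p of 0.827.

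Pdk3, the kinase known for its high activity and weak inhibition by pyruvate, had a difference near 0 over all windows. Its signal was 259, 377 and 349.6 in DMSO against 321, 399 and 333 in T0 to T24, and 343, 451 and 413 against 338, 433 and 405 in T14 to T20. In T24 to T30 it was 427, 462 and 426 against 364, 467 and 418. Groups overlapped in each window, and 3 of 9 pairs were higher under the drug. Over all windows the difference was −0.0032 ± 0.05 log2 units (95% interval −0.11 to 0.10).

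The kinases were then compared with each other through their within-pair log2 ratios, in which gene length and library scaling cancel, apart from the added 1. There were 8 comparisons in all, the 6 pairs of kinases and 1 pair each of phosphatases and E1 subunits, each tested over 9 pairs with a two-sided exact permutation test that flips the sign of each pair and adjusted over the 8. The Pdk4 ratio exceeded that of Pdk1 by 1.02 log2 units (SD 0.36; 95% interval 0.74 to 1.29), that of Pdk2 by 1.09 (SD 0.45; 0.75 to 1.44) and that of Pdk3 by 1.17 (SD 0.31; 0.93 to 1.41). It was the larger in 9 of 9 pairs in all 3 comparisons, with an exact permutation p of 0.0039, the smallest that 9 pairs can give, and an adjusted p of 0.0104. With any 1 replicate number left out the 3 differences ran from 0.88 to 1.29 and the adjusted exact p from 0.0625 to 0.0833. The Pdk4 ratio was the larger in all 6 pairs left, so each exact p was the smallest that 6 pairs can give. Adjusted over the 8 comparisons it stayed above the threshold of 0.05, so this p cannot show whether the differences weakened. With the windows averaged within each number only 3 values remained, the smallest exact p was 0.25 and the adjusted p was 0.50.

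Among the other kinases no difference passed. Pdk1 exceeded Pdk2 by 0.08 log2 units (95% interval −0.16 to 0.32; adjusted exact p = 0.670) and Pdk3 by 0.15 (−0.03 to 0.34; adjusted exact p = 0.203). Pdk2 exceeded Pdk3 by 0.08 (−0.11 to 0.26; adjusted exact p = 0.50), in 8 of 9 pairs. With the windows averaged within each number the intervals were wider, −0.37 to 0.53 for Pdk1 minus Pdk2 and −0.12 to 0.42 for Pdk1 minus Pdk3, so they do not show that the 3 kinases respond alike. Within T0 to T24 alone Pdk1 exceeded Pdk2 by 0.38 ± 0.37 and Pdk3 by 0.28 ± 0.13 log2 units (SD, n = 3), in 3 of 3 pairs each, and the exact permutation p of 0.25 was the smallest that 3 pairs can give.

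**Figure D3:**
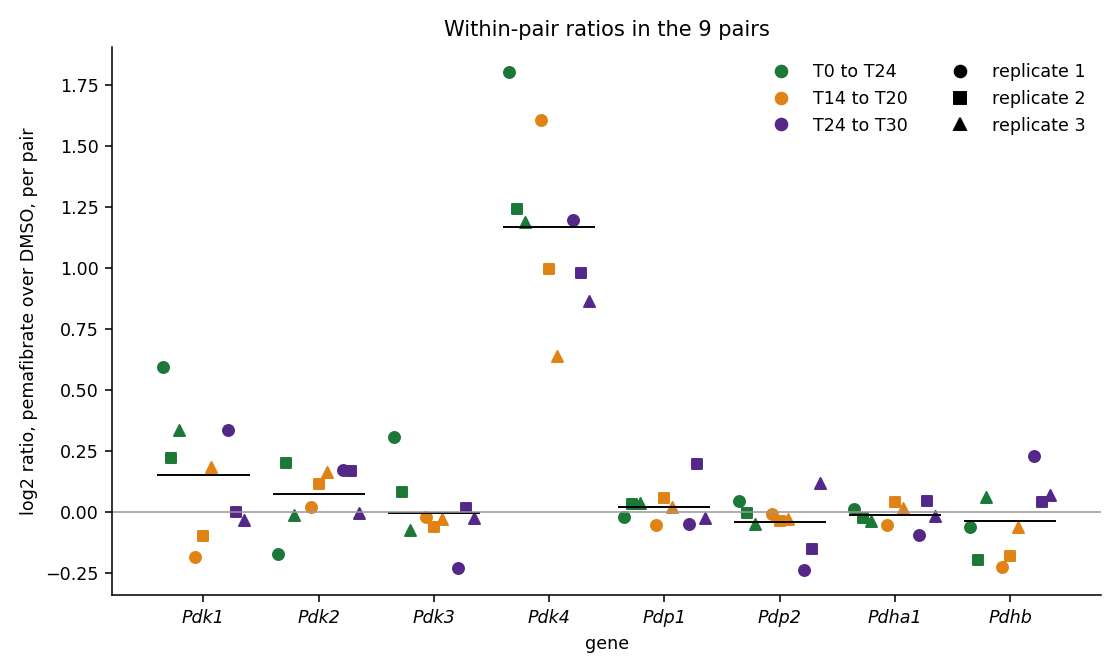
Log2 ratio of pemafibrate over DMSO (vertical axis) in each of the 9 pairs for the 8 genes on the horizontal axis. Colour gives the window, shape the replicate number and the black bar the mean of the 9 pairs. The Pdk4 pairs run from 0.64 to 1.80, and every pair of the other 7 genes lies at or below 0.59.

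The phosphatase genes showed no difference that passed. PDP1 is the phosphatase stimulated by calcium, and PDP2 is the isoform that does not respond to calcium. Pdp1 signal was 511, 554 and 594 in DMSO against 504, 567 and 609.7 in T0 to T24, 582, 495 and 504 against 561, 515 and 512 in T14 to T20, and 656, 508 and 537 against 634, 583 and 528 in T24 to T30. The 2 groups overlapped in every window. Over all windows Pdp1 differed by 0.02 ± 0.03 log2 units (95% interval −0.05 to 0.10).

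Pdp2 signal was 361, 553 and 499 in DMSO against 373, 553 and 481 in T0 to T24, 421, 554 and 552 against 419, 541 and 542 in T14 to T20, and 495, 582 and 474 against 419.7, 525 and 514 in T24 to T30. Replicate 1 was the lowest of its group in 5 of 6 groups. The difference over all windows was −0.04 ± 0.04 log2 units (−0.12 to 0.05), with 7 of 9 pairs lower under the drug. Pdp1 exceeded Pdp2 in its ratio by 0.06 log2 units (95% interval −0.05 to 0.17; adjusted exact p = 0.4125), in 6 of 9 pairs.

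The E1 subunit genes were the most abundant of the 8. Pdha1 encodes the alpha subunit that carries the regulatory serines, and its signal ran from 5535 to 6517 over the 9 DMSO libraries and from 5581 to 6691 over the 9 pemafibrate libraries. Its difference over all windows was −0.01 ± 0.02 log2 units (95% interval −0.05 to 0.03), the narrowest interval among the 8 genes. Its within-pair ratios ran from −0.09 to 0.04 log2 units.

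Pdhb, the beta subunit, differed in opposite directions in the short windows. In T14 to T20 its signal was 1722, 1919 and 1826 in DMSO and 1472, 1695 and 1752 under pemafibrate, lower in 3 of 3 pairs. In T24 to T30 it was 1619, 1712 and 1915 in DMSO and 1900.5, 1759.9 and 2011 under pemafibrate, higher in 3 of 3 pairs. Groups overlapped in both windows, and also in T0 to T24, where the values were 1548, 1699 and 1594 against 1482, 1483 and 1665. The limma difference was −0.16 ± 0.05 log2 units in T14 to T20 (−0.27 to −0.04; adjusted p = 0.524) and 0.11 ± 0.05 in T24 to T30 (−0.01 to 0.24; adjusted p = 0.684). The test of the difference between the 2 windows gave −0.27 log2 units (−0.45 to −0.09), with an unadjusted p of 0.0064 and an adjusted p of 0.393, so it did not pass. T0 to T24 was 0.18 below T24 to T30, at −0.18 (−0.36 to −0.0026), with an unadjusted p of 0.047 and an adjusted p of 0.618.

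At an unadjusted p under 0.05, 1 of the 8 genes was counted in each difference between windows, namely Pdhb, Pdk1 and Pdhb in the order given above for all genes. Pdk2, Pdk3, Pdp1, Pdp2 and Pdha1 had differences between windows from −0.11 to 0.18 log2 units, the smallest unadjusted p being 0.137. Over 9 pairs the Pdha1 ratio exceeded that of Pdhb by 0.02 log2 units (95% interval −0.11 to 0.16; adjusted exact p = 0.711), a mean over windows of unlike sign. Pdha1 minus Pdhb was 0.05 ± 0.14 in T0 to T24, 0.16 ± 0.07 in T14 to T20 and −0.14 ± 0.17 in T24 to T30 (SD, n = 3 each), above 0 in 2, 3 and 1 of 3 pairs.

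How much of each gene's variation went with the treatment and how much with the replicate number was described from the sums of squares within windows. For Pdk4, 89.6% went with treatment and 4.90% with replicate number. For Pdk1 the shares were 34.3% and 49.4%, and for Pdhb 33.2% and 48.1%, in the same order. For the other 5 genes the treatment share ran from 1.39% for Pdk2 to 5.94% for Pdk3, and the replicate share from 82.7% for Pdk3 to 96.5% for Pdk2. Pdk4 was the gene among the 8 whose treatment share exceeded its replicate share. A window holds more replicate numbers than treatments, so spread alone puts more of the sum of squares on the replicate number. The shares were not corrected for this, so they do not show which of them weighed more for Pdk1 and Pdhb.

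To compare levels between genes the signal was divided by length in kilobases, using the merged exons of GENCODE M21, which may not be the annotation the authors used. Pdk2 held the largest share of the summed signal per kb of the 4 kinases in DMSO, at 49.9% ± 10.2 in T0 to T24, 43.8% ± 9.01 in T14 to T20 and 41.3% ± 4.83 in T24 to T30 (SD, n = 3 each). Pdk3 followed at 26.9% ± 6.92, 29.9% ± 5.46 and 31.5% ± 3.38, and Pdk1 at 18.8% ± 2.98, 21.7% ± 2.31 and 22.4% ± 2.34. Pdk4 was the least, at 4.42% ± 0.65, 4.57% ± 1.33 and 4.82% ± 1.11. The order was the same under pemafibrate, where Pdk4 took 10.4% ± 2.29, 8.98% ± 1.95 and 9.09% ± 2.48.

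The Pdk4 share did not overlap between treatments in any window and stayed below that of each other kinase in all 18 libraries. The lowest share of another kinase was 15.4% (Pdk1) and the highest of Pdk4 was 12.6%. Pdk2 and Pdk3 overlapped between libraries in T14 to T20 in DMSO, and Pdk3 and Pdk1 overlapped in T0 to T24 in both treatments and in T14 to T20 under pemafibrate. With the length of the longest principal transcript in place of merged exons, a choice made after seeing the data, Pdk4 went from 3.29%, 3.41% and 3.61% in DMSO to 7.87%, 6.77% and 6.86%. By that length Pdk1 at 23.9% stood above Pdk3 at 22.5% in T0 to T24 under pemafibrate, the 1 group of 6 in which their order changed.

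**Figure D4:**
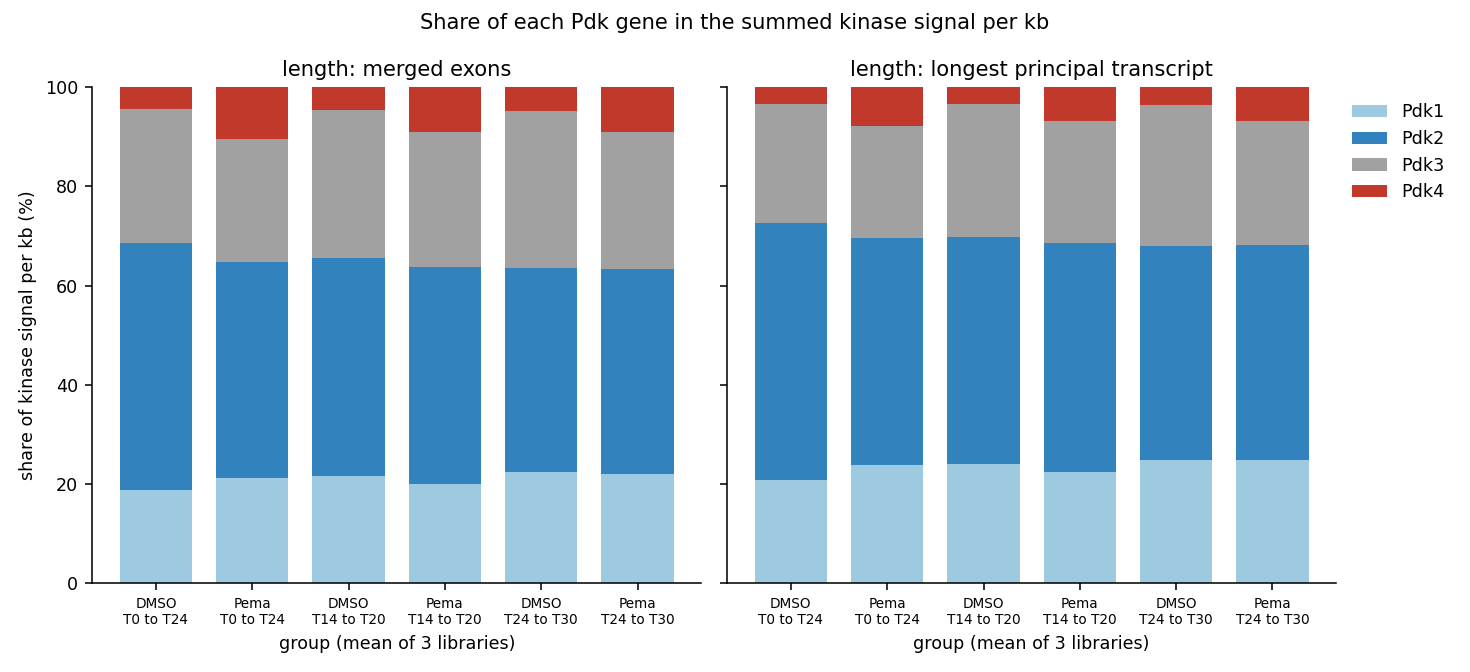
Share of each kinase gene in the summed signal per kb of the 4 (vertical axis, percent), mean of 3 libraries for each of the 6 groups on the horizontal axis. The left panel divides by merged exons and the right panel by the longest principal transcript. Pdk4 is the smallest part of every bar, at 4.42% to 4.82% in DMSO and 8.98% to 10.4% under pemafibrate in the left panel.

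Per kb of merged exons in DMSO, Pdp1 signal was 123 ± 9.14, 117 ± 10.7 and 126 ± 17.3 in the 3 windows, and Pdp2 signal was 82.7 ± 17.4, 89.5 ± 13.4 and 90.9 ± 10.1 (SD, n = 3 each). Pdha1 stood at 1601 ± 120.4, 1684 ± 57.5 and 1732 ± 16.7 per kb, and Pdhb at 418 ± 20.05, 472 ± 25.5 and 453 ± 39.2. The gap between the E1 subunits depended on the length used: with the longest principal transcript Pdhb stood at 1067 ± 51.2 and Pdha1 at 2099 ± 158 in T0 to T24.

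The genes whose pattern was most like each of the 8 were found by Pearson's r over 18 libraries, on log2 values centred on the mean of each window, among 13044 other genes. The libraries share replicate numbers and treatments, so r is a description. For Pdk4 they were Angptl4, a secreted inhibitor of lipoprotein lipase (r = 0.94), Aldh1a1, a retinaldehyde dehydrogenase (r = 0.88), and Acot2, a mitochondrial acyl-CoA thioesterase (r = 0.84). Acot2 and Aldh1a1 have close paralogs, so the division of reads between copies is uncertain. Angptl4 signal ran from 1043 to 1498 over the 9 DMSO libraries and from 1571 to 2149 over the 9 treated ones, without overlap.

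**Figure D5:**
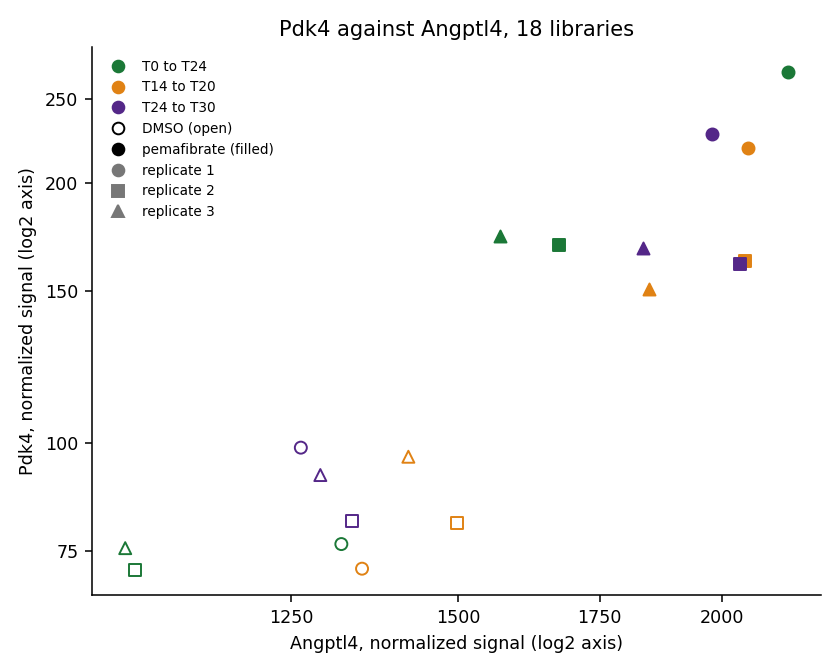
Pdk4 signal (vertical, log2 axis) against Angptl4 signal (horizontal, log2 axis) in the 18 libraries. Open marks are DMSO and filled marks pemafibrate, colour gives the window and shape the replicate number. The filled marks lie at 151 or more on the Pdk4 axis and the open marks at 98.9 or less, and the 3 highest are replicate 1 of each window.

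Among the other genes, Pdk2 was closest to the membrane metalloproteinase gene Mmp15 and the transcription factor gene Cebpa (r = 0.96 for each). Pdp2 was closest to the chemokine gene Cxcl3, the lipid kinase gene Pip5k1b and the Rag GTPase gene Rragc (r = 0.95 for each). Pdk3 was closest to Aig1 (r = 0.93), the retromer gene Vps26a (r = 0.92) and again Cxcl3 (r = 0.91), and Pdk3 and Pdp2 correlated with each other at r = 0.91. For Pdp1 they were Slf2, the ETS factor gene Etv5 and Hmga1 (r = 0.88 to 0.89), and for Pdha1 the ATP synthase subunit gene Usmg5, Hmgn2 and the predicted gene Gm20594 (r = 0.91 to 0.92). Pdk1 and Pdhb had the loosest matches, Rtl8a, Gramd1c and Tada3 for Pdk1 (r = 0.80 to 0.83) and Polr3c, Dazap1 and Brms1 for Pdhb (r = 0.81 to 0.84).

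The rest of the complex was read from a list of E2, E3 and assembly partners. Of 10 genes 9 were tested, 0 rose and 0 fell by the limma adjusted p over all windows, and the median difference was −0.03 log2 units against −0.0025 for all genes tested. Dlat, the E2 acetyltransferase, differed by −0.02 ± 0.04, Dld, the E3 dehydrogenase, by −0.06 ± 0.03, and Pdhx, the E3-binding protein, by −0.03 ± 0.04 log2 units (SE). Pdpr, the regulatory subunit of the phosphatase, differed by 0.02 ± 0.04. The lipoate genes Lias, Lipt1 and Lipt2 differed by −0.03 ± 0.03, −0.03 ± 0.04 and −0.07 ± 0.07. Estimates were below 0 for 8 of the 9, and none of the 9 had an unadjusted p under 0.05. Pdha2, the testis form of E1 alpha, was at 0 in all libraries.

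Genes around pyruvate did not pass either. In a list of pyruvate supply, transport and other fates, 18 of 20 were tested and 0 rose and 0 fell, with a median of −0.0033 log2 units. The smallest p values were those of Pcx, pyruvate carboxylase, at −0.17 ± 0.05 (SE; limma adjusted p = 0.348), and Slc16a7, a monocarboxylate transporter, at 0.66 ± 0.26 (adjusted p = 0.700). In the related dehydrogenase complexes and their kinase and phosphatase, 8 of 8 were tested and 0 rose and 0 fell, with a median of −0.06. Bckdhb, of the branched-chain complex, differed by −0.10 ± 0.04 (adjusted p = 0.659) and Dhtkd1, a 2-oxoadipate dehydrogenase, by −0.17 ± 0.08 (adjusted p = 0.777).

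Of 16 transcriptional regulators of the kinase genes 14 were tested, and 0 rose and 0 fell, with a median of 0.00011 log2 units. Ppargc1a, a coactivator of PPARα, differed by 0.16 ± 0.05 (limma adjusted p = 0.531) and Foxo1 by 0.07 ± 0.03 (adjusted p = 0.767). All 16 hypoxia-inducible genes were tested and 0 rose and 0 fell, with a median of −0.02. Slc2a1, a glucose transporter, differed by −0.12 ± 0.03 (adjusted p = 0.131) and Egln3, a prolyl hydroxylase, by −0.08 ± 0.03 (adjusted p = 0.629). Estimates were above 0 for 5 of the 16, namely Car9, P4ha1, Adm, Pgk1 and Aldoa, named after their values were seen. Car9, a carbonic anhydrase gene with a low mean signal of 53.7, differed by 0.40 ± 0.22 over all windows (adjusted p = 0.828). In T0 to T24 estimates were above 0 for 5 of the 16, with a median of −0.05. In that window 3 of the 16 had an unadjusted limma p under 0.05, against 5.17% of all genes tested. They were Slc2a1 at −0.14 ± 0.05 (adjusted p = 0.865), Eno1 at −0.09 ± 0.04 (adjusted p = 0.946) and Car9 at 0.51 ± 0.19 (adjusted p = 0.946).

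Of 20 other PPARα targets on a list 16 were tested, and 9 rose and 0 fell over all windows, where 0.189% of all genes tested passed. Their median was 0.18 log2 units, against −0.0025 for all genes tested. The counts within windows were 6 in T0 to T24 and 3 in each short window. Of all genes tested, 0.0525% passed in T0 to T24, 0.0379% in T14 to T20 and 0.0378% in T24 to T30. Creb3l3, a liver transcription factor gene, rose by 1.26 ± 0.11 log2 units (SE). The acyl-CoA thioesterase genes Acot1 and Acot2 rose by 0.73 ± 0.04 and 0.83 ± 0.05, Angptl4 by 0.57 ± 0.03, and the lipid droplet gene Plin2 by 0.37 ± 0.02. Of the genes of fatty acid entry and oxidation, Cpt1a rose by 0.31 ± 0.02, Slc25a20 by 0.20 ± 0.03 and Acadvl by 0.16 ± 0.02. The Pdk4 difference of 1.17 ± 0.11 lay between those of Acot2 and Creb3l3. This list was drawn up with earlier results of these libraries known, so its count is no independent evidence of a direction.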

How the data were processed

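Libraries were stranded (dUTP) from poly(A) RNA and sequenced as DNA nanoballs, per the labels. The authors deposited 1 table per window of normalized signal, estimated counts scaled within the window, per the file headers and names; the column names end as salmon output does. Counter version, annotation and genome build: not given in the sources used here. Read depth before scaling is unknown. Symbols matched 35181 of 35551 gene IDs.

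Groups and replicate numbers came from the sample titles. Log2(value + 1) was fitted with limma 3.58.1 in R 4.3.3 (lmFit, eBayes with a variance trend) for genes with a mean of at least 10, with the replicate number as a block, Benjamini-Hochberg adjustment and a threshold of 0.05. The numbers were used as pairs: deviations from group means correlated at 0.35 to 0.65 across genes for the same number (9 pairs) and at −0.46 to −0.13 for different numbers (18). Deviations cancel within a group, so the negative values follow from the positive ones and add no separate evidence. The fit over all windows has 9 pairs as blocks. Promoter sequences came from RefSeq on GRCm38.p6 and gene lengths from GENCODE M21. The fits were tested on simulated data with independent noise in every library. Dependence between pairs of the same number in different windows was not simulated.

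Named genes were the 8 genes, all E2, E3 and assembly partners, the called genes and the 2 of smallest p in every other list, and the 3 genes most like each of the 8. A few of these are counted but not reported here by name. The 8 genes and all lists were chosen with earlier results of these data known. Alternatives are in the closing section, with lengths by the longest principal transcript added after seeing the data.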

Additional observations from a re-analysis of the deposited data

Results flagged for a closer look

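The pemafibrate effect on Pdhb differed in sign between the 6 h windows. All 3 pairs were lower under the drug in T14 to T20 and all 3 were higher in T24 to T30, and the effect in T14 to T20 minus that in T24 to T30 was −0.27 log2 units. This pattern of pairs is the rule by which Pdhb was flagged, and its share over all genes was not counted. The limma test of the difference between the 2 windows gave an adjusted p of 0.393, so it did not pass. Its unadjusted p was 0.0064, and 9.24% of all genes tested had an unadjusted p under 0.05 for this difference. No cause was tested.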

How the results depend on the processing

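Under 13 other settings per result (pseudocount, minimum, scaling, variance model, block, leaving out a number), Pdk4 was higher under pemafibrate in each window and over all windows. Over all windows it passed in 13 of 13, at 0.98 to 1.30 log2 units and adjusted p from 4.2e-05 to 0.0248. Within T0 to T24 its 1.41 passed in one fit of all libraries (adjusted p = 0.0087) and with robust eBayes (adjusted p = 0.031). The causes were not tested. Genes called in the 3 windows, in the order of the report, were 14, 9 and 8 in one fit of all libraries, and 0, 0 and 0 with no replicate block, with no minimum and with no variance trend, where 73 to 1254 had an unadjusted p under 0.05 by limma. T14 to T20 gave 8 with robust eBayes and 3 with upper-quartile scaling. Over all windows the count was 2 with no replicate block and 12 with windows averaged within each number. The block changed no call of the 8 genes.

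Leaving out 1 replicate number gave 4 (without 2) to 12 (without 1) genes called in T0 to T24, 1 (without 2) to 7 in T24 to T30, 12 to 17 over all windows and 0 to 1 in each difference between windows. Effects near 0 changed sign, in log2 units. Pdk1 ran from −0.14 to 0.043 in T14 to T20 and from −0.015 to 0.17 in T24 to T30. Pdk2 ran from −0.091 to 0.096 and Pdp2 from −0.026 to 0.022 in T0 to T24, and Pdk3 from −0.015 to 0.016 over all windows. Pdp1 ran from −0.016 to 0.039 in T14 to T20, −0.036 to 0.088 in T24 to T30 and −0.014 to 0.054 over all windows. Pdha1 ran from −0.017 to 0.029, −0.056 to 0.014 and −0.028 to 0.0045 in the same fits. Pdhb ran from −0.13 to 0.00016 in T0 to T24 and −0.066 to 0.0027 over all windows. The effect in T14 to T20 minus that in T24 to T30 ran from −0.31 to 0.058 for Pdk1 and −0.10 to 0.21 for Pdk4.

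The isoform differences without 1 number ran from 0.88 to 1.16 for Pdk4 minus Pdk1, 0.88 to 1.22 for Pdk4 minus Pdk2 and 1.00 to 1.29 for Pdk4 minus Pdk3, with adjusted exact p from 0.0625 to 0.0833. Before adjustment each of these exact p was the smallest that the pairs left can give. With windows averaged they were 1.02, 1.09 and 1.17, at an adjusted exact p of 0.50, since 3 values cannot give less than 0.25. Pdk1 minus Pdk2 ran from −0.0026 to 0.18 and Pdha1 minus Pdhb from −0.031 to 0.054. Of 24 kinase shares, 8 moved by more than 1 SD with the other gene length. Read depth is unknown, which limits what can be said of precision.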
